A study of Homo sapiens with 4 samples.

Results

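The 10 mRNAs described here are among those that the study of PRRC2B followed up one by one. Of these 10, 7 were tested as bound by the protein (CCND2, CRKL, YWHAZ, SERBP1, BPTF, PPP2R1A and ACTB). The other 3 were tested as unbound controls (GAPDH, PTBP1 and GATA4). The study also tested others, such as CTC1 and ATAD5 as bound and HSPA4 and RPL37A as unbound, which are not described here. Sites of the 10 mRNAs were taken as the entries of the deposited peak lists that carry 1 of the 10 gene symbols. This gave 12 of 894 distinct sites in the list for full-length PRRC2B (FL) and 10 of 571 in the list for its RNA-binding fragment (RBD, called P2 in the study). The lists name 1054 genes in all. HEK293T cells, a human embryonic kidney line, were made to overexpress FLAG-tagged full-length PRRC2B or FLAG-tagged RBD, were fed 4-thiouridine (4sU) for 16 h and were irradiated with UV at 312 nm, and the crosslinked RNA was trimmed with RNase T1 and pulled down with an antibody against the FLAG tag. Each construct had 2 biological replicates, and each list pools both, so no value below has a spread between replicates and none was tested across samples. The tagged proteins came from transfected constructs and not from the endogenous gene, and no library without a tagged protein was analysed here.

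PRRC2B is a large cytoplasmic protein with an arginine and glycine-rich segment that contacts RNA, and it is a member of the PRRC2 family of proteins. In PAR-CLIP, 4sU in the RNA is joined by UV light to a protein that touches it, and the RNA fragments that come down with the protein are sequenced. A site is therefore a stretch of transcript where such fragments pile up, and its height is the largest number of fragments that overlap there. RNase T1 cuts RNA after G, so a stretch without G is left whole. The 5′ UTR is the path that the small ribosomal subunit scans towards the start codon, and a stretch of protein-coding sequence (CDS) or 3′ UTR is not on that path.

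Sequences of at most 30 nt from the middle of 7 of the sites are shown because the sites differed in sequence class. Only CCND2 had opposite classes in FL and RBD, and the windows of CRKL, GAPDH and PTBP1 reached neither class. Each is written 5′ to 3′ as RNA, and the capitals mark the 15 nt within the middle 41 nt of the site that hold most C and U or most G and A, whichever share was higher. The windows lie, in the human genome build hg38, at chr12:4273754-4273783 (plus strand) and chr12:4273853-4273882 (plus) for the FL and the RBD site of CCND2, chr22:20917710-20917739 (plus) for CRKL, chr17:67826192-67826221 (plus) for BPTF, chr19:52226198-52226227 (plus) for PPP2R1A, chr12:6537627-6537656 (plus) for GAPDH and chr19:811022-811051 (plus) for PTBP1.
CCND2 FL site: accgcuuCAGAGCGGAGAAGAGcgagcagg
CCND2 RBD site: cacccaaUCCUCGCCUCCCUUCugcuccac
CRKL FL site: ucccgggCGGCUCUCUCCGUGUggcggccc
BPTF FL site: ggauucuGAGGACGACGAGGAGgaugagau
PPP2R1A RBD site: cagugacCUUGGGAGGAAGGGGcuacuccg
GAPDH taller FL site: gccccucCGGGAAACUGUGGCGugauggcc
PTBP1 FL site: ucuugguGACUGUGGCAGCGGGaguucccg

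CCND2 encodes cyclin D2, which activates CDK4 and CDK6 as cells pass from G1 into S phase. Its FL and RBD sites both lay in the 5′ UTR, but they were different stretches of it. The FL site had its middle 262 nt upstream of the start codon and the RBD site 168 nt upstream, so the 100-nt sites were shifted by 94 nt and overlapped by 6 nt. Of the 316 FL sites with an RBD partner, 3 overlapped it by 10 nt or less, and the median overlap was 97.0 nt. The FL site ran over the annotated start of the canonical transcript (ENST00000261254.8), with 33 of its 100 nt outside the transcript and its middle at nt 18. The middle of the FL site was GA-rich, with 13 of 15 nt being G or A in the window printed above, and its highest C and U share in any 15 nt was 26.7%. The middle of the RBD site was CU-rich, with 14 of 15 nt being C or U, and its highest G and A share was 26.7%. Opposite classes at paired sites were found in 3 of the 209 pairs on exons of protein-coding genes, or 1.44%. The height was 8 (95% Poisson interval 3.45 to 15.8) in FL and 6 (2.20 to 13.1) in RBD. Such intervals cover counting error only, here and below, since the total number of reads is not known from the lists and PCR copies were removed by read sequence. Of the 4 annotated coding transcripts of CCND2, 2 hold the middles of these sites, in both cases in the 5′ UTR.

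CRKL encodes an adaptor protein that joins tyrosine kinase signals to Ras and Rap1 activators, and it was the other mRNA with sites in the 5′ UTR. The FL and RBD sites lay 1 nt apart, with 99 nt in common and their middles 215 and 216 nt upstream of the start codon, in exon 1 of 3. The height was 4 (interval 1.09 to 10.2) in FL and 7 (2.81 to 14.4) in RBD. CRKL was the lowest FL site of the 10 mRNAs, and 0.671% of all FL sites were lower. The caller's p, from the deposited peak names, was 0.0216 for the FL site and 1.36e-04 for the RBD site. The expected height that the caller gives to a gene (PH0, written with 2 decimals) was 0.00 for CRKL in FL and 0.06 in RBD. Of 256 genes with a site in both lists, CRKL was the only one listed at 0.00 in FL and above it in RBD. PH0 was lower in RBD than in FL for 157 of these genes, equal for 92 and higher for 7, and it was lower in RBD for the other 6 mRNAs with sites in both lists. What set the PH0 values of CRKL apart was not tested.

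**Figure D1:**
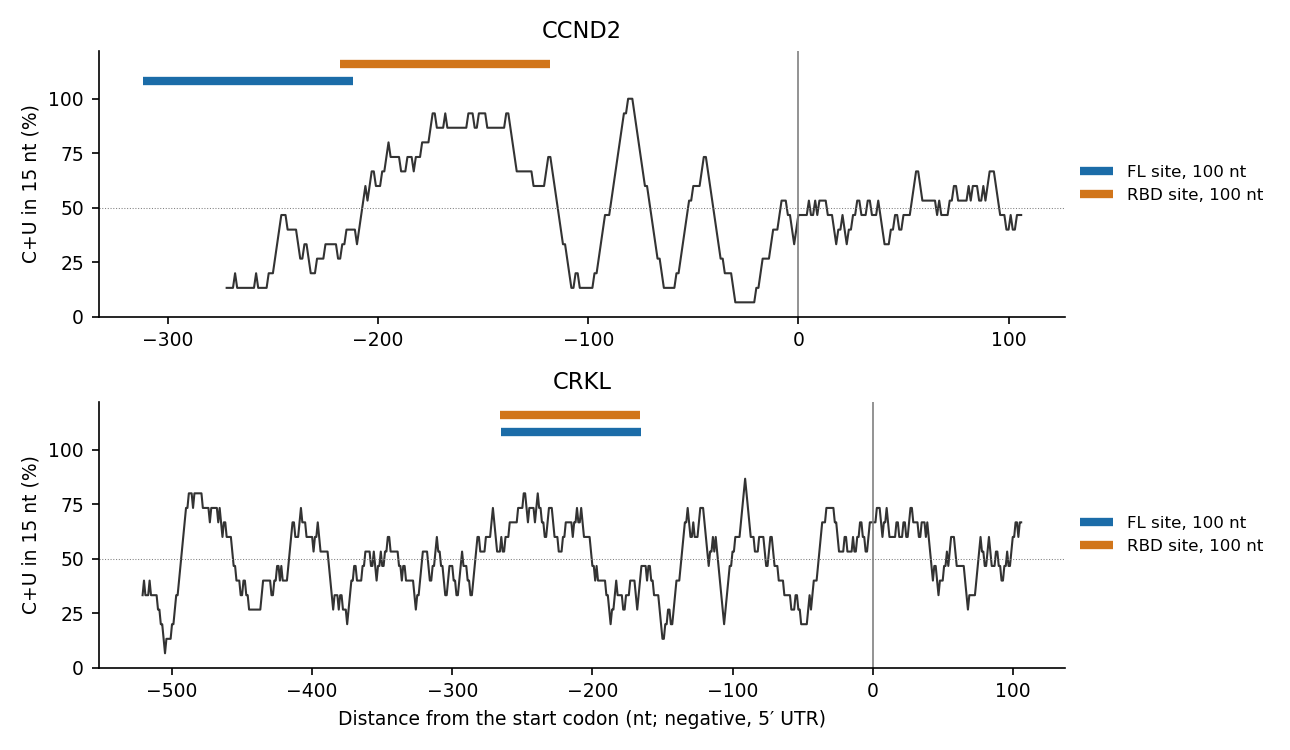
Share of C and U in 15-nt windows (vertical axis, %) along the 5′ UTR and the first 100 nt of the coding sequence of CCND2 and CRKL (horizontal axis, distance of the window's middle from the start codon in nt). Bars above the curves mark the 100-nt sites: on CCND2 the FL bar lies over windows poor in C and U and the RBD bar over the broad stretch rich in them, and on CRKL the bars coincide.

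The 5′ UTR of CCND2 alternated between both kinds of sequence, as the plot of C and U shares along the 5′ UTRs shows. Over its 265 windows of 15 nt the C and U share ran from 6.67% to 100%, with 55 windows at 80% or more and 67 at 20% or less. The window with the highest share was centred 81 nt upstream of the start codon, outside either site. In the CRKL 5′ UTR, 15 of 514 windows reached 80% and 25 were at 20% or less. The middle 41 nt of the CRKL sites had at most 11 of 15 nt as C or U, 1 short of the 12 that the CU-rich class asked for, and 46.7% as G or A. Both CRKL sites held 14 G, 17 C, 9 U and 1 A in these 41 nt.

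SERBP1 encodes an mRNA-binding protein that sits on ribosomes, and it had the tallest sites among the mRNAs tested as bound. The height was 16 (interval 9.15 to 26.0) in FL and 13 (6.92 to 22.2) in RBD, with starts 1 nt apart. The sites lay in the CDS, in exon 2 of 8, at codon 133, 396 nt and 397 nt past the first base of the start codon. The middle was GA-rich in both lists, with 12 of 15 nt. The 41 nt centred 100 nt upstream on the spliced transcript reached 86.7% G and A for the FL site and 93.3% for the RBD site.

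BPTF encodes the largest subunit of the NURF chromatin remodeler, and its sites were also GA-rich and in the CDS. The sites began 10 nt apart and had 90 nt in common, with their middles in exon 1 of 28, at codons 161 and 164. The height was 8 in FL and 6 in RBD. The G and A share reached 86.7% in both lists, in the same 15 nt, and the 41 nt centred 100 nt upstream reached 93.3% for the FL site and 100% for the RBD site. The middle 41 nt of the FL site held 5 U, and that of the RBD site 4.

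PPP2R1A encodes the scaffold subunit of the phosphatase PP2A. Its sites lay in the 3′ UTR of the canonical transcript, 217 and 218 nt past the stop codon, in the last of 15 exons, and they began 1 nt apart. The study lists PPP2R1A among the mRNAs with a site in the CDS, which differs from this placement. The deposited region label was 3′ UTR in FL, while in RBD the label joined CDS, 5′ UTR and 3′ UTR, although the sites have 99 nt in common. The height was 14 (7.65 to 23.5) in FL and 9 in RBD. At this site the class changed with the shift of 1 nt: the highest G and A share was 11 of 15 nt in FL and 12 of 15 nt in RBD, where the window printed above enters the middle 41 nt. Centred 100 nt downstream on the spliced transcript, the sequence reached a C and U share of 86.7%.

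YWHAZ encodes the zeta form of the 14-3-3 proteins, which hold phosphorylated partners. Its sites lay deep in the 3′ UTR, 1150 and 1156 nt past the stop codon of ENST00000395958.6, and overlapped by 94 nt. The height was 8 in each list. Neither class fitted: the highest G and A share was 66.7% in both lists, and the highest C and U share was 53.3% in FL and 66.7% in RBD. The middle 41 nt of the FL site had no G at all and 22 A, and that of the RBD site 1 G. A run of at least 19 nt without G, the lower end of the fragment sizes that were purified, was found in 1 of 12 FL and 2 of 10 RBD sites of these mRNAs. Among all exonic sites on protein-coding genes the share was 22.0% in FL and 19.3% in RBD.

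ACTB encodes cytoplasmic beta-actin and was the mRNA with most sites, 3 in each list, all with their middle in the CDS. From 5′ to 3′ the heights were 8, 11 and 7 in FL and 11, 10 and 6 in RBD. The pairs were shifted more than those of the other mRNAs except CCND2: the starts lay 42, 12 and 64 nt apart and the overlaps were 58, 88 and 36 nt. The first FL site lay at the start codon, with its middle at codon 8, 73 nt in the CDS, 6 nt in the 5′ UTR and 21 nt outside the spliced transcript. The sites in exons 3 and 4 were GA-rich in RBD, with 12 of 15 nt as G or A, and in neither class in FL, where the highest G and A shares were 73.3% and 60.0%. The spliced transcript (ENST00000646664.1) is 1812 nt long, the shortest of the mRNAs tested as bound.

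**Figure D2:**
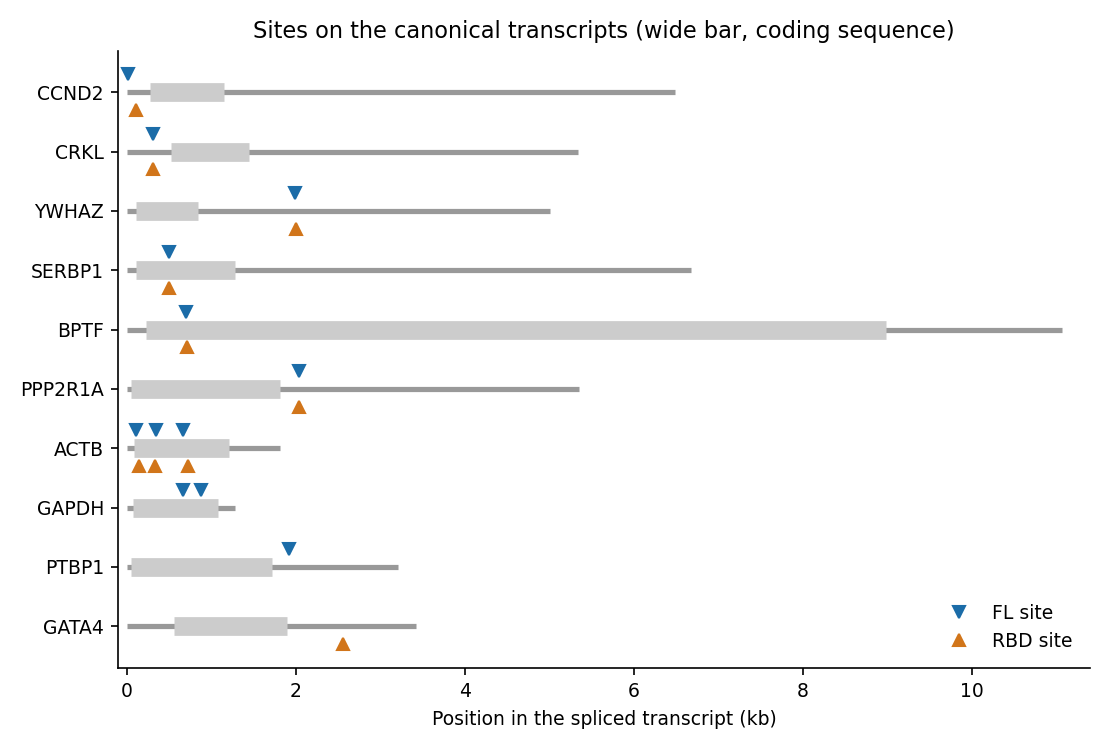
Canonical transcripts of the 10 mRNAs drawn to scale (horizontal axis, position in the spliced transcript in kb), with the coding sequence as a wide bar and triangles at the middle of each FL (above) and RBD (below) site. Sites of CCND2 and CRKL lie left of the coding bar, those of YWHAZ, PPP2R1A, PTBP1 and GATA4 right of it.

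GAPDH, a glycolytic enzyme and a common reference mRNA, was tested as unbound, and it had the tallest site of all 10 mRNAs. Both of its sites were in the FL list, in exon 8 of 9 of the CDS, at codons 197 and 267. Their heights were 18 and 12 (6.20 to 21.0). No RBD site lay in the gene on either strand, in the annotated table or in the list of positions. PH0 was 0.62, more than at any other site of the 10 mRNAs, and 6.04% of all FL sites had a higher one. The height divided by PH0 was 29.0 and 19.4, above that of 4.70% and 1.79% of FL sites. Among the 56 FL sites with a PH0 of 0.62 or more, the lowest height was 11. Many of these 56, and of the 6.04%, are sites on the PRRC2B mRNA itself, whose PH0 in FL was 0.70. Neither sequence class was reached, with highest G and A shares of 66.7% and 73.3%.

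PTBP1, which encodes a splicing repressor that binds pyrimidine tracts, was also tested as unbound. Its site in the FL list lay 205 nt past the stop codon, in exon 15 of 15, with a height of 11 and a PH0 of 0.20. The caller's p for it was 5.27e-08. The ratio of 55.0 was above that of 12.4% of FL sites. The highest G and A share was 66.7% and the highest C and U share 60.0%. The FL sites of GAPDH and PTBP1 had no partner in the RBD list. Lack of a shared site goes with the label of unbound in the study, so it is not a separate result. Of 104 FL sites with a height from 11 to 18, 74 or 71.2% overlapped an RBD site. That share is matched on height alone, and the PH0 of GAPDH (0.62) and PTBP1 (0.20) lay above the FL median of 0.03. A site that is missing from a list was not called there, and its height is not known.

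GATA4, which encodes a transcription factor of heart and endoderm, was the remaining control. Its site was in the RBD list, 662 nt past the stop codon in exon 7 of 7, with a height of 5 (1.62 to 11.7) and a PH0 of 0.01. The caller's p was 4.40e-04. The middle was CU-rich at 86.7% and held a run of 30 nt without G. Of 107 RBD sites with a height of 5, 29 or 27.1% overlapped an FL site. With CCND2 in the same list, it was 1 of 2 CU-rich sites on the 10 mRNAs.

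**Figure D3:**
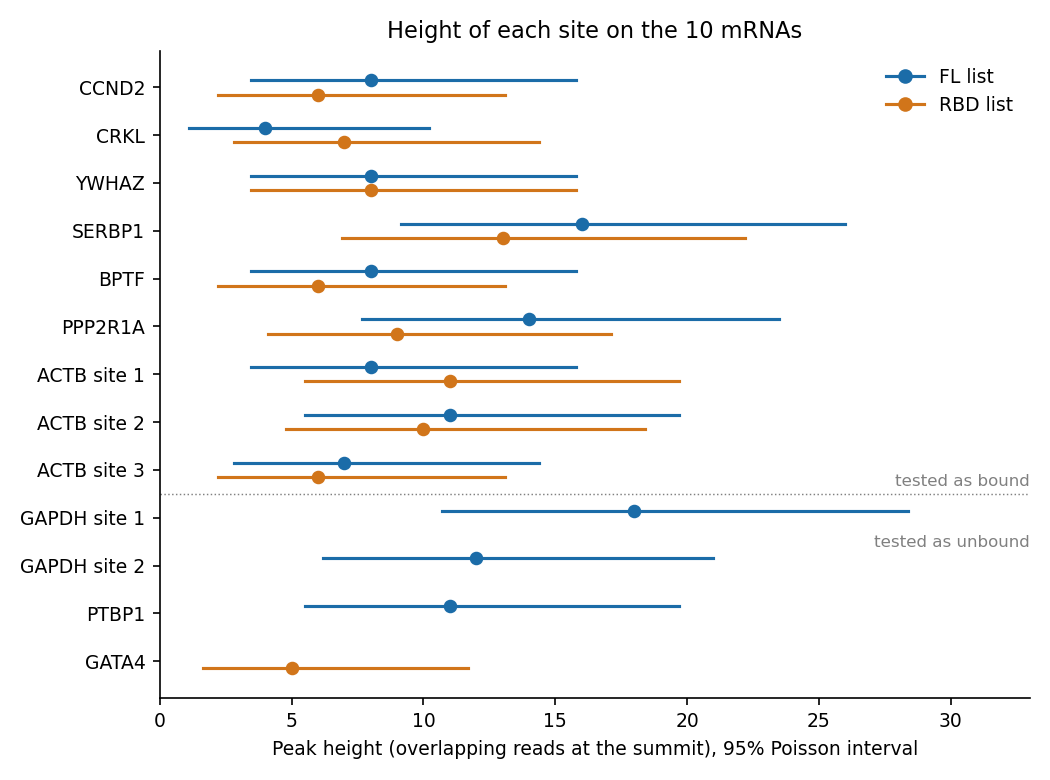
Height of each site (horizontal axis, reads at the summit) on the 10 mRNAs, with points for the FL and RBD lists and bars for 95% Poisson intervals that cover counting error only; sites of ACTB and GAPDH are numbered from 5′ to 3′. Intervals overlap at every pair, and the control sites of 18, 12 and 11 reach the heights of the mRNAs tested as bound.

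Sharing between the lists is what the study used to call an mRNA bound, so it is given as a description. The study also checked its tested bound mRNAs, beside unbound ones, by immunoprecipitation of endogenous PRRC2B and RT-qPCR, which these lists do not hold. All 9 FL sites and all 9 RBD sites of the 7 mRNAs tested as bound had a partner of the same gene in the other list, and none of the 3 FL sites and 1 RBD site of the controls had 1. Over all sites, 35.3% of FL sites and 56.0% of RBD sites overlapped a site of the other list by at least 1 nt. Both shares include the many CDS sites on the PRRC2B mRNA, all of which had a partner. Of 20020 protein-coding genes, 0.859% had an exonic site in both lists. The sharing at CCND2 and ACTB depended on how much overlap was asked for: at 50 nt or more CCND2 had none, and at 90 nt or more neither CCND2 nor ACTB had any. With the caller's p at 0.001 or less in both lists CRKL lost its pair. ACTB then lost its pair in exon 4, where the caller's p was 0.00211 in FL and 0.0466 in RBD, and kept the other 2. At a height of 10 or more in both lists, SERBP1 kept its pair, ACTB kept the pair in exon 3 and lost the other 2, and the other 5 mRNAs had none.

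At the 9 pairs the RBD height divided by the FL height, on the log2 scale, ran from -0.64 at PPP2R1A to 0.81 at CRKL, with a median of -0.22. Over all 316 pairs the median was -0.21 and the SD across pairs 0.46, so CRKL stood 1.02 above that median and PPP2R1A 0.43 below it. At CRKL the FL list held 36.4% of the reads of the pair (exact binomial interval 10.9% to 69.2%), and at PPP2R1A it held 60.9% (38.5% to 80.3%). Over all pairs the FL share was 54.7%, which lies inside the interval of each of the 9 pairs. At these heights no pair could be told from the general ratio.

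In height, 10 of the 12 FL sites and 5 of the 10 RBD sites were taller than the median site of their list, which had a height of 7 in each. Heights of 7 or less were found at 59.3% of all FL and 57.8% of all RBD sites. A height of 10 or more was found in 6 of 12 FL sites, 3 on mRNAs tested as bound and 3 on controls, and in 3 of 10 RBD sites, beside 26.6% of all FL and 29.1% of all RBD sites. The caller's p was at its floor of 1e-100 for 4 FL sites, the taller GAPDH site among them, and 3 RBD sites. Over all sites the shares at the floor were 19.1% in FL and 19.8% in RBD. Against PH0 they ranked low: 18 of the 22 sites had a height divided by PH0 below the median of their list, which was 225 in FL and 300 in RBD with sites at a PH0 of 0.00 counted above it. The exceptions were BPTF in both lists (400 and 600), GATA4 (500) and CRKL in FL, where PH0 was 0.00 and the ratio at least 800 if PH0 was just under 0.005. Ranked among exonic sites on protein-coding genes alone, 15 of the 22 were below the median, and both YWHAZ sites and the FL site of PPP2R1A joined the exceptions. The ratio fell from there to 200 and 267 at YWHAZ, 175 and 150 at PPP2R1A, 145 and 144 at SERBP1, 133 and 150 at CCND2, 117 at CRKL in RBD, 70.0 to 138 at ACTB, and to 55.0 at PTBP1 and the 2 values of GAPDH. PH0 was the same for all sites of a gene in a list, so the order within ACTB and within GAPDH is that of the heights.

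**Figure D4:**
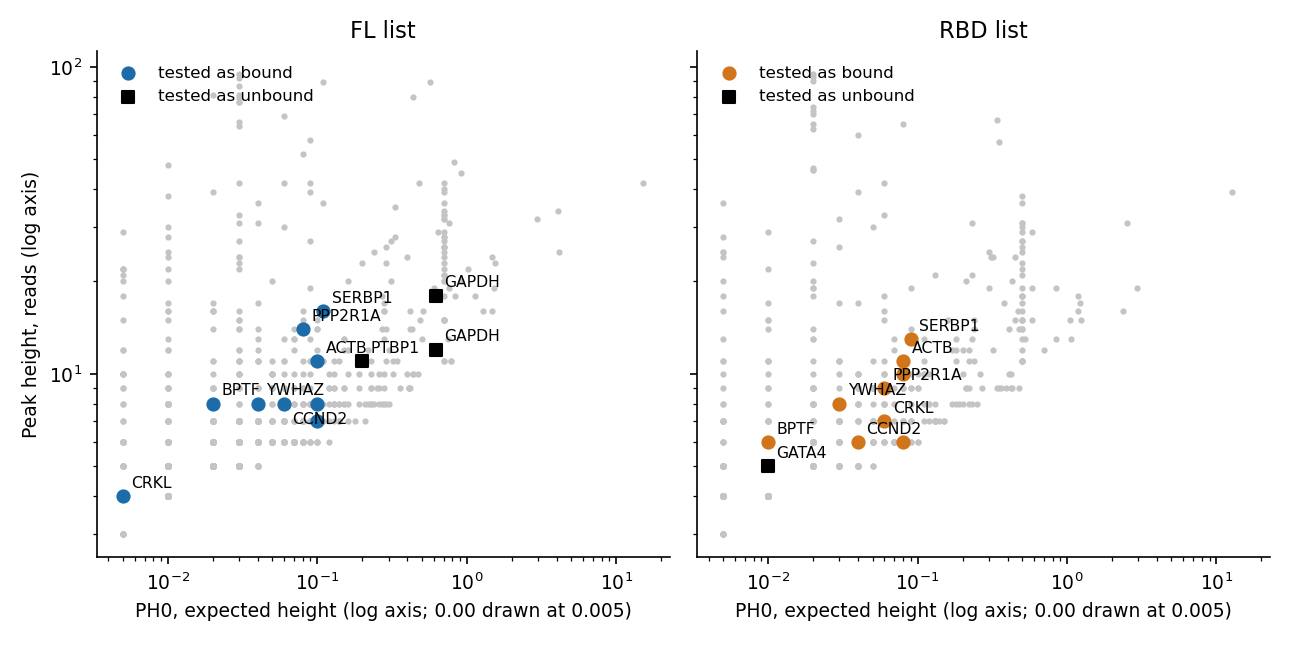
Height (vertical log axis, reads) against the caller's expected height PH0 (horizontal log axis, 0.00 drawn at 0.005) for all distinct sites of each list in grey, with the sites of the 10 mRNAs marked by how the study tested them. GAPDH at 0.62 and PTBP1 at 0.20 lie to the right of every FL site of the mRNAs tested as bound, and CRKL in FL lies at the left edge.

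GA-rich middles were more common than CU-rich ones on these mRNAs. In the FL list 3 of 12 sites were GA-rich (CCND2, SERBP1 and BPTF), none was CU-rich and 9 were neither. In the RBD list 5 of 10 were GA-rich (SERBP1, BPTF, PPP2R1A and 2 sites of ACTB), 2 were CU-rich (CCND2 and GATA4) and 3 were neither. Over all exonic sites on protein-coding genes, 42.2% were CU-rich and 24.9% GA-rich in FL (706 sites), and 49.2% were CU-rich and 19.1% GA-rich in RBD (425 sites). The count of CU-rich sites on these mRNAs was thus below the general share, with few sites and several of them on the same transcript. When the whole 100 nt were searched, 3 of 12 FL sites were CU-rich and 6 GA-rich, beside 49.0% and 35.3% of all exonic sites, and 4 of 10 RBD sites were CU-rich and 5 GA-rich, beside 55.1% and 30.1%. In that search the sites of CRKL reached 80% in each kind. The flanks, 41 nt centred 100 nt to either side on the spliced transcript, were GA-rich at 4 of 22 in FL and 7 of 19 in RBD, beside 25.4% and 27.2% for all exonic sites. They were CU-rich at 5 of 22 in FL and 3 of 19 in RBD, beside 19.7% and 19.5%. GA-rich flanks were also found beside middles of another class: downstream of YWHAZ (93.3% in both lists) and of CRKL, and on both sides of the CU-rich GATA4 site.

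**Figure D5:**
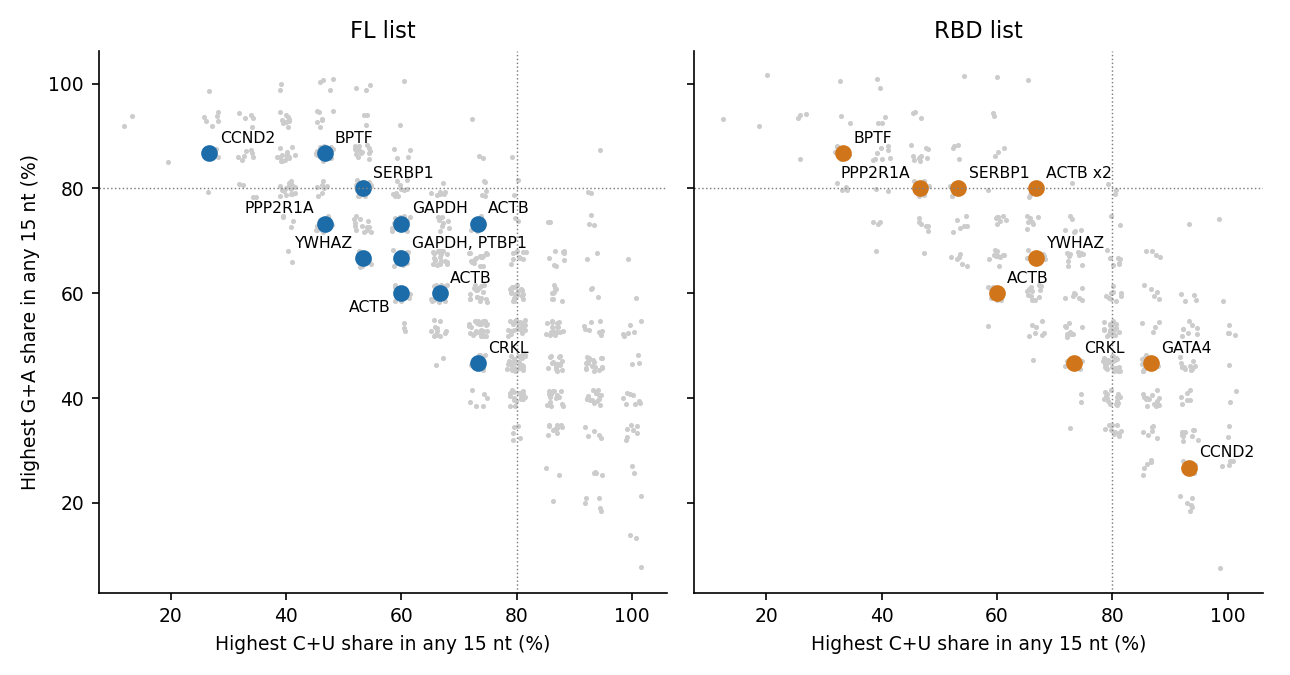
Highest G and A share (vertical axis, %) against highest C and U share (horizontal axis, %) in any 15 nt of the middle 41 nt, for all exonic sites on protein-coding genes in grey (moved slightly apart at random) and the sites of the 10 mRNAs in colour, by list. Dotted lines mark the 80% limits; CCND2 lies at the upper left in FL and at the lower right in RBD.

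Upstream frames, short reading frames that begin with AUG in the 5′ UTR, were found on 3 of the 10 canonical transcripts: CRKL, BPTF and GATA4 with 1 each. Over 19135 canonical transcripts with a 5′ UTR, 42.7% had at least 1. The frame of CRKL began 170 nt upstream of the start codon, had 15 codons before its stop and ended inside the 5′ UTR. It was the only upstream frame that a site touched: its first 5 nt lay in the FL site and its first 4 nt in the RBD site, so the sites ended 2 nt and 1 nt past its start codon. The frame of BPTF also had 15 codons, that of GATA4 had 9, and both ended inside the 5′ UTR. BPTF alone had a purine 3 nt before and a G right after the AUG. The 5′ UTR of CCND2, 279 nt long, had no upstream AUG, against a median 5′ UTR of 136 nt over all canonical transcripts. YWHAZ, SERBP1, PPP2R1A, ACTB, GAPDH and PTBP1, with 5′ UTRs of 45 to 103 nt, had none either.

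Copies of a site's sequence elsewhere in the genome bear on where a mapper can place its reads. The middle 25 nt had an exact copy elsewhere at 1 of the 22 sites, the ACTB site in exon 4 in FL, whose copy lies in the processed pseudogene ACTBP9. Exact copies were found at 18.5% of all FL and 19.6% of all RBD sites. With 1 mismatch allowed, copies were found at 5 of 12 FL and 6 of 10 RBD sites, beside 28.4% of all FL and 29.8% of all RBD sites: at 5 of the 6 ACTB sites with 5 to 21 each, among them ACTG1 and actin pseudogenes, at both SERBP1 sites with 2 each in SERBP1P1 and SERBP1P3, at both GAPDH sites with 1 each in GAPDHP1, at the RBD site of YWHAZ with 3, and at GATA4 with 1. None of these copies held a listed site. The sites of CCND2, CRKL, BPTF, PPP2R1A and PTBP1 had no copy even with 1 mismatch.

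Relatives and partners of the 10 proteins were listed to see whether their mRNAs were also in the lists. Of 74 such genes, 14 had a site in either list, beside 4.22% of all protein-coding genes with an exonic site there. In both lists 5 had a site, beside 0.859%. A site in FL was found for 11 and in RBD for 8, for which no share over all genes was computed. The lists were picked by hand, so the counts are not read as enrichment. The level of the mRNAs in these cells was not analysed here. None of the 9 other PP2A subunits and none of the 7 other genes around GATA4 had a site. In the list around cyclin D2, CDK4 had a site in RBD, with a height of 6 and a caller's p of 0.0336. RB1, the retinoblastoma protein that the cyclin D kinases phosphorylate, had a site in FL, with a height of 4 and a caller's p of 0.00624. None of these 11 had a site in both. Of 5 NURF partners, RBBP4 and RBBP7, histone-binding subunits, had a site in FL alone, with heights of 7 and 6. These last 4 genes were named after their values were seen, and the other relatives with sites in only 1 list are not named.

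The 5 listed genes with a site in both lists were RACK1, EEF2, ACTG1, PKM and PTBP3. RACK1, a protein of the small ribosomal subunit, had FL heights of 29 and 12 and RBD heights of 20 and 9 at overlapping sites. The taller pair has a deposited label of CDS and 5′ UTR, but its middle does not lie on the canonical transcript. EEF2, the factor that moves the ribosome along the mRNA, had 24 and 16 in FL and 18 and 16 in RBD. ACTG1, the gamma-actin paralog of ACTB, had CU-rich sites where ACTB had none: its 5′ UTR site, 38 nt upstream of the start codon, had a C and U share of 86.7% and heights of 18 in FL and 13 in RBD, and its CDS site reached 93.3% with heights of 14 and 11. PKM, the pyruvate kinase of glycolysis, had a 3′ UTR site of 9 in FL and 8 in RBD with a C and U share of 93.3%, where GAPDH, of the same pathway, had neither class and no RBD site. PTBP3, the paralog of PTBP1, had a CU-rich 3′ UTR site in both lists, of 5 in FL and 6 in RBD, at 93.3%.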

How the data were processed

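Per the labels and the study's methods, the authors trimmed adapters with cutadapt, removed identical read sequences, mapped to hg38 with Bowtie (1.2.1.1 in the submitters' processing notes), called peaks with the CLIP Tool Kit, kept significant peaks near T-to-C conversions and pooled the 2 replicates of each construct. The deposited value is a signal, the peak height in reads, and the peak names, in the same lists, hold PH0 and a p. Sites are 100 nt wide. Library depth is not given by the lists. Records at 1 position under several gene names were counted once as a site (1062 FL and 749 RBD records). Shares and medians over all sites or pairs include the sites on the PRRC2B mRNA, whose coding sequence the transfected constructs carry in full or in part. The 10 mRNAs and the lists of relatives were chosen with earlier results of these data known, and every site of the 10 was named; of the relatives, the rule named genes with a site in both lists, and 4 others were named after their values were seen. Sites were placed by their middle on the MANE Select transcript of GENCODE 44. A site was CU-rich or GA-rich where the highest share in any 15 nt of its middle 41 nt was 80% or more and above the other. Copies of the middle 25 nt were searched on both strands of the main chromosomes. No statistical test was run, since each list is 1 pooled sample. Scripts in Python 3.11.15 with pysam 0.24.0, scipy 1.17.1 and numba 0.67.0 were tested on simulated data. Alternatives varied the overlap, height and p limits, the transcript, the sequence window, the start codon and the mismatches. The sequence of the SERBP1 site is not reported here.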

Additional observations from a re-analysis of the deposited data

How the results depend on the processing

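No paired analysis was possible because FL replicates 1 and 2 are merged in 1 list, as are those of RBD, and for the same reason no replicate could be left out. Shared sites on the 10 mRNAs, 9 in each list, were 5 in each at an overlap of 90 nt or more and 2 in each at a height of 10 or more, where the mRNAs with a shared site went from 7 to 2. At that height the shared part of all FL sites rose from 35.3% to 57.1%. On the longest transcripts 2 sites in place of 4 lay in the 5′ UTR, because the longest CCND2 transcript holds neither site. CU-rich sites went from 2 to 7 over the whole 100 nt and to 4 with 10-nt windows, and GA-rich sites from 8 to 13 with 10-nt and 3 with 20-nt windows. On the spliced transcript the FL site of CCND2 could not be classed, since its middle runs past the transcript's start. mRNAs with an upstream frame went from 3 to 6 on the longest transcripts and to 9 with CUG also counted as a start, which 89.6% of all canonical transcripts have. Sites with a copy elsewhere went from 1 to 11 with 1 mismatch and to 0 over 35 nt. The other 26 alternatives stayed within 1.5 times the main count or share. Depth limits the rest: at the paired sites, heights of 4 to 16 reads leave intervals in which FL and RBD cannot be told apart.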
